A study of Mus musculus with 6 samples.

Results

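The BCL2 family decides whether a blood cell keeps its mitochondria intact. Pro-survival members hold the outer mitochondrial membrane closed, BH3-only members sense stress and bind them, and the effectors form pores once they are released. Blood cell types lean on different members: resting lymphocytes are known to depend on Bcl2, and neutrophils, which live only briefly, on Mcl1 and the A1 proteins encoded by the Bcl2a1 copies. Open chromatin at 10 of these genes was measured in mouse peripheral blood. They were the pro-survival genes Bcl2, Bcl2l1, Mcl1, Bcl2a1b and Bcl2a1d, the BH3-only genes Bcl2l11, Bbc3 and Pmaip1, and the effectors Bax and Bak1, chosen by name from 78252 annotated genes, with earlier results of these data known. A peak was assigned to a gene when its summit lay in the gene body or within 3 kb of an annotated start (GRCm39, GENCODE).

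The assay was ATAC-seq, in which Tn5 transposase cuts accessible DNA, on white blood cells left after lysis of the red cells, as the labels and methods have it. The study's results call the same cells mononuclear, a preparation that would lack most neutrophils. Its ATAC-seq methods describe red cell lysis and washing, with no step that separates mononuclear cells. The sources used here do not explain the difference in wording. The 3 control libraries came from C57BL/6j mice kept in normoxia. The 3 HADA libraries (high-altitude de-acclimatization) came from mice of the same strain that had spent 28 days in a hypobaric chamber simulating 6000 m and were then returned to normal oxygen. The mice were male and 8 weeks old when bought, no agent or allele differed between the groups, and the sources used here give neither the day of blood collection for ATAC-seq nor whether a library was 1 mouse.

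Each library was called for peaks by itself, with 34045 to 41475 peaks in control and 44044 to 45799 in HADA. The measure used here was the pileup at a peak's summit, the whole number of reads or fragments that the peak caller counted over that base. Which of these it counted depends on settings that the sources used here do not give. The genome-wide background pileup, which reflects depth, was 1.69, 2.05 and 1.83 in control 1 to 3 and 2.34, 1.99 and 2.27 in HADA 1 to 3. Overlapping peaks were joined into 62876 regions, of which 49 belonged to the 10 genes, and 23970 regions (21 of the 49) held a peak in all 6 libraries. Those shared regions were tested with limma on log2(pileup + 1) after centring each library on its median region. Control 3 stood apart with the fewest peaks, the lowest B cell signal and the highest neutrophil signal.

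The blood samples differed in cell type markers, and in bulk samples fewer cells of a type and less accessibility per cell cannot be told apart. Marker signal was summed over promoters in units of library background, and a marker without a peak in a library added 0 although its level is unknown. The sum of 10 B cell markers ranged from 28.4 to 257 in control and from 600 to 683 in HADA, and 4 of the 4 markers tested were called higher. In control 3, 6 of the 10 had no peak. Neutrophil marker signal over 12 genes ranged from 304 to 755 in control and from 133 to 241 in HADA, with 5 of the 6 tested called lower and Camp without a peak. Monocyte markers gave 147 to 215 against 102 to 133, with 5 of 5 tested called lower. Of the untested monocyte markers, Ly6c2 had 23.7, 14.6 and no peak in control against 41.9, 40.7 and 33.4 in HADA, and Ccr2 had a peak in 1 control and 3 HADA libraries. T cell markers gave 251 to 339 against 401 to 450, with 2 of 7 called higher and Cd8a without a peak, and NK cell markers gave 11.5 to 47.4 against 50.4 to 76.8, with 0 of 1 called. Ly6g, a defining neutrophil marker, had a promoter peak in control 3 and in no other library. Eosinophil and basophil markers (21.9 to 46.2 against 72.1 to 78.2, though the 1 gene tested was called lower, with Ccr3, Epx, Mcpt8, Fcer1a and Cpa3 without a peak) and erythroid and platelet markers (76.5 to 96.6 against 168 to 207, 1 of 2 tested called higher, with Alas2 and Gp9 without a peak) also differed without overlap. Klf1 gave most of the erythroid and platelet sum, at 75.8, 57.9 and 67.2 in control and 153, 134 and 120 in HADA. Itga2b was not called, and Gata1 and Pf4 had a peak in HADA 3 alone. Of all shared promoter regions, 19.8% were called higher and 8.66% lower. Beside these shares, counts over few tested markers carry little weight, as for all lists but those of B cells, neutrophils and monocytes. The part of these marker shifts in each result below was not tested.

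Among the 21 shared regions, 4 were called higher in HADA, 1 was called lower and 16 did not pass the test (limma, Benjamini-Hochberg adjusted over all 23970 regions). That is 19.0% higher against 18.0% of all shared regions, and 4.76% lower against 24.4% of all. Of the 13 shared promoter regions, 2 were called higher and 1 lower, against 19.8% and 8.66% of all 11883 shared promoter regions. The median log2 difference of the 21 regions was 0.0, beside -0.04 for all shared regions, 0.11 for promoters and -0.46 for the rest. The higher calls were 3 regions of Bcl2 and 1 of Bcl2l11, and the lower call was a region of Bbc3. Dividing by the library background in place of median centring shifted the median region by 0.34 and called 5 of 21 higher and 0 lower, against 31.0% and 18.3% of all regions. The fifth was a Bcl2 intron 18.5 kb from the 5′ end.

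**Figure D1:**
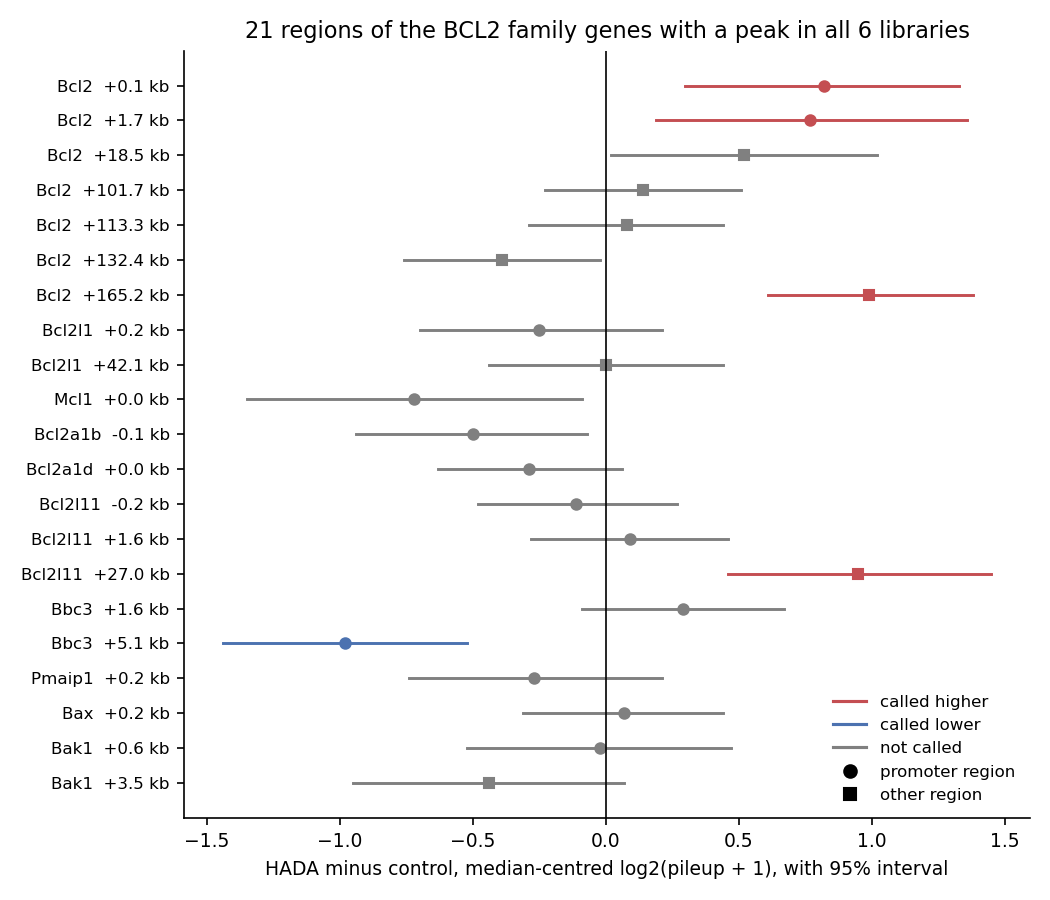
HADA minus control difference in median-centred log2(pileup + 1) for the 21 shared regions (x axis), each row labelled with its gene and the summit's distance from the gene's 5′ end in kb, with the 95% interval as a line, circles for promoter regions and squares for others. The 3 Bcl2 regions called higher lie at 0.77 to 0.99, the Bcl2l11 intron at 0.95 and the internal Bbc3 region at -0.98, while every Bax, Bak1, Bcl2l1 and Pmaip1 interval crosses 0.

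Bcl2, the founding pro-survival gene (chr1:106465908-106642060, minus strand), was the member with the most accessible regions and the most higher calls. It is also by far the longest, at 176.2 kb against 51.1 kb for Bcl2l1, with 9 regions, and 4.5 kb for Mcl1, with 1. Peaks anywhere in a gene body were counted, so the number of regions follows gene length and is no trait of Bcl2 by itself. Its promoter region, chr1:106641386-106642209, had its summit in the first exon, 0.1 kb inside the gene. The summit pileup there was 120, 101 and 59 in control 1 to 3 and 278, 211 and 246 in HADA 1 to 3. Every HADA library was above every control library, and control 3 was the lowest of all. Relative to library background this was 50.8 ± 19.5 in control and 111 ± 6.86 in HADA (SD, n = 3). The median-centred difference was 0.82 on the log2 scale (SE 0.22, 95% interval 0.30 to 1.33, limma adjusted p = 0.0229), a 1.76-fold higher level at the 91.7 percentile mark of all shared promoter regions. Without HADA 1, HADA 2 or HADA 3 the adjusted p rose to 0.0695, 0.0662 and 0.0705, and without control 3 the difference was 0.54. The call was also lost with the rank of the deposited fold enrichment within each library, at 0.17 normal scores (limma adjusted p = 0.398).

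The bases just before the Bcl2 start lie under this peak and are free of exons. They are shown beside the same stretch of Mcl1, the promoter with which Bcl2 is contrasted. Both are given 5′ to 3′ on the gene's strand, as the 120 bases before the annotated 5′ end in GRCm39 (chr1:106642061-106642180 and chr3:95565906-95566025). Capitals mark matches, on either strand, to a GC box (GGGCGG) or the ETS core (CCGGAAG).
Bcl2 upstream: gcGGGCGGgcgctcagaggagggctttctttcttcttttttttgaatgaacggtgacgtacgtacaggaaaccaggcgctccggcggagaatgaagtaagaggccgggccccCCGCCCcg
Mcl1 upstream: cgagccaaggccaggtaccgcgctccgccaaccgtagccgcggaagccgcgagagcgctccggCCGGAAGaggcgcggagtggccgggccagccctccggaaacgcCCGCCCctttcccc
Both are CpG-rich, with 12 CpG and 60.8% G and C in Bcl2 and 18 CpG and 75.8% in Mcl1. The GC box occurs in 25.2% and the ETS core in 4.32% of the 21757 protein-coding upstream windows of this length, so the GC box is a common feature.

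Inside Bcl2, a second start region at 1.7 kb, chr1:106639862-106640536, rose together with the promoter. Its pileup was 44, 39 and 21 in control and 80, 85 and 101 in HADA, a difference of 0.77 (SE 0.25, limma adjusted p = 0.0405). Again the groups did not overlap, but the call sits near the threshold: without control 3 the difference was 0.47 (adjusted p = 0.0801), and without HADA 1, 2 or 3 the adjusted p was 0.0542, 0.117 and 0.127. With fold ranks it was 0.29 (limma adjusted p = 0.315). In all, 9 of 15 alternative settings lost the call.

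Deep in the gene, an intronic region 165.2 kb from the 5′ end, chr1:106476377-106477319, showed the largest positive difference of the 21 regions. Pileup was 35, 36 and 25 in control and 103, 91 and 102 in HADA. The lowest HADA value was more than double the highest control value, and the libraries of each group lay close together. The difference was 0.99 (SE 0.17, 95% interval 0.61 to 1.38, limma adjusted p = 0.00850), a 1.99-fold higher level, and it still passed with any single library left out, with limma adjusted p from 0.00767 to 0.0431. With fold ranks the call was lost, at 0.20 (limma adjusted p = 0.321). A start of the small RNA gene Mir3473f lies within 3 kb. The 120 bases at its summit (chr1:106476838-106476957, minus strand) are shown with an ETS core in capitals, a match found in 2.20% of windows of this length at all 62874 region summits read.
Bcl2 intron at 165.2 kb: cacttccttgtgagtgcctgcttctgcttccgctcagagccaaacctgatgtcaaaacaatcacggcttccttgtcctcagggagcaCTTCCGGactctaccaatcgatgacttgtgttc

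The other 4 shared Bcl2 regions did not pass the test. At 18.5 kb the pileup was 34, 19 and 19 in control and 57, 46 and 54 in HADA, with a difference of 0.52 (limma adjusted p = 0.0830, and 0.0163 without control 1). With background scaling it was 0.93 and passed (limma adjusted p = 0.00661). At 132.4 kb it was 64, 63 and 59 against 72, 68 and 78, which after centring is -0.39 (limma adjusted p = 0.0815). Among regions whose summit sequence was found once it was called lower, at -0.47 (limma adjusted p = 0.0388). The regions at 101.7 and 113.3 kb differed by 0.14 and 0.08, with intervals that cross 0. Differences within Bcl2 were thus uneven, from -0.39 to 0.99 over its 7 shared regions, with a median of 0.52.

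Bcl2 held 23 of the 49 regions, and 16 of them lacked a peak in at least 1 library. Of the 23, 13 (56.5%) were found in more HADA than control libraries and 2 (8.70%) in more control libraries, beside 35.5% and 22.7% of all regions. A region at 144.4 kb had a pileup of 26 and 22 in control 1 and 2, no peak in control 3, and 97, 71 and 85 in HADA. Its neighbour at 143.3 kb had 25 in control 1 alone, against 65, 54 and 62. Every HADA value was above the control values that were listed, and neither region could be tested. The region at 86.9 kb ran the other way, with 48, 51 and 63 in control, 27 and 33 in HADA 1 and 2, and no peak in HADA 3. At 6.7 kb the pileup was 20 in control 2 alone and 44, 43 and 55 in HADA, and at 26.1 kb it was 29 and 20 in control 1 and 2 and 49, 47 and 38 in HADA. The remaining 8 regions, at 36.0, 51.1, 59.8, 66.8, 69.7, 107.2, 152.9 and 161.3 kb, had peaks in 1 to 3 libraries with pileups of 10 to 39.

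At 136.3, 118.9 and 31.2 kb, Bcl2 had peaks in all 3 HADA libraries and in no control library. Pileup was 34, 37 and 46 in HADA 1 to 3 at the first, 19, 22 and 20 at the second and 21, 17 and 16 at the third. A peak list holds no value where no peak was called, so these control levels are unknown, and the lowest pileup listed anywhere was 7 to 8 for control libraries and 8 to 9 for HADA libraries. The tallest of the 3 is shown at its summit (chr1:106505736-106505855, minus strand), and it held none of the 12 motifs searched.
Bcl2 intron at 136.3 kb: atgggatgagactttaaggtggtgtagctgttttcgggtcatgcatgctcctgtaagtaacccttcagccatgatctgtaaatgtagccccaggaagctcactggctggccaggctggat

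**Figure D2:**
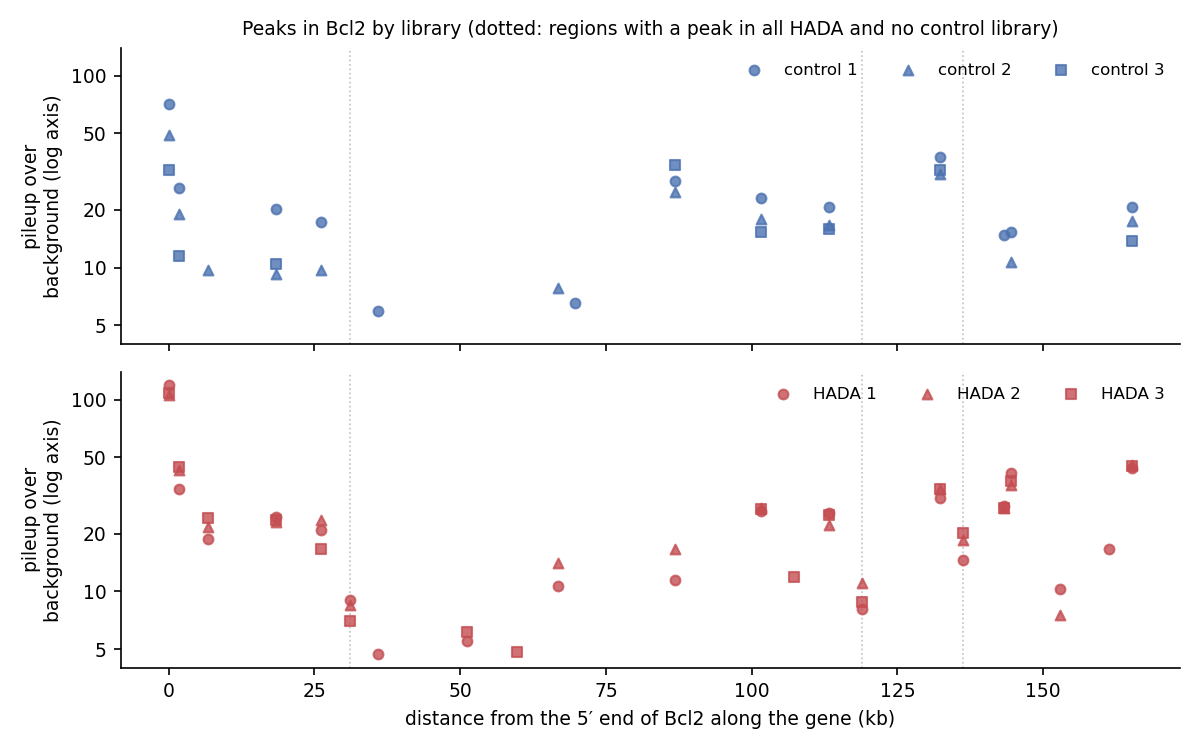
Summit pileup over library background (log axis) of every Bcl2 peak against its region's distance from the gene's 5′ end in kb, with control libraries above and HADA libraries below and a marker shape for each replicate. Dotted lines mark the 3 regions, at 31.2, 118.9 and 136.3 kb, with a peak in all HADA and no control library, and the promoter region near 0 kb reaches 106 to 119 in HADA against 32.2 to 71.1 in control.

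Mcl1, the short-lived survival protein that neutrophils and their precursors need, had 1 region, at its promoter (chr3:95565498-95567013). Pileup was 265, 269 and 447 in control and 367, 262 and 267 in HADA. Relative to library background this was 157, 131 and 244 in control and 157, 132 and 117 in HADA, so the groups overlapped and control 3 was by far the highest. After median centring the groups separated, with HADA lower by a log2 difference of -0.72 (SE 0.27, 95% interval -1.35 to -0.09), which did not pass the test (limma adjusted p = 0.0639) and lay at the 8.0 percentile mark of promoters. Without control 1 it was -0.89 (limma adjusted p = 0.0436), and without control 3 it was -0.45 (adjusted p = 0.0598). It was also called lower with quantile normalization (limma adjusted p = 0.0358), among regions whose summit sequence was found once (0.0434) and with a limma trend (0.0445).

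The deposited fold enrichment at the Mcl1 promoter differed in the opposite direction. It was 4.51, 5.51 and 4.37 in control and 6.62, 7.20 and 7.52 in HADA. This column divides the pileup by a local background, which here was 58.0, 48.0 and 102 in control and 54.6, 35.5 and 34.6 in HADA, far above the genome-wide value. The rank of the fold within each library was higher in HADA by 0.74 normal scores (limma adjusted p = 0.0454). The direction at Mcl1 therefore depends on whether the summit is read alone or against its surroundings.

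The A1 genes Bcl2a1b and Bcl2a1d, which serve neutrophils and activated lymphocytes, are near-identical copies on chromosome 9, together with Bcl2a1a. At the Bcl2a1b promoter (chr9:89080552-89081596) pileup was 149, 147 and 177 in control and 176, 154 and 182 in HADA. At the Bcl2a1d promoter (chr9:88613589-88614616) it was 117, 110 and 107 in control and 153, 128 and 140 in HADA. After centring the differences were -0.50 (95% interval -0.94 to -0.07, limma adjusted p = 0.0628) and -0.29 (95% interval -0.63 to 0.06, limma adjusted p = 0.153). Neither passed the test, and on the background scale the levels were 85.5 ± 12.8 against 77.5 ± 2.42 for Bcl2a1b and 60.4 ± 8.06 against 63.7 ± 1.96 for Bcl2a1d (SD, n = 3). For Bcl2a1b, 6 alternative settings gave an adjusted p below the threshold in the same direction, as the closing section lists.

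Bcl2a1a, no member of the set but a source of the same reads, had promoter pileups of 83, 82 and 131 in control and 57, 29 and 32 in HADA, a called difference of -1.95 (SE 0.30, limma adjusted p = 0.00831). The 120 bases before the annotated 5′ end of Bcl2a1d (chr9:88613968-88614087, minus strand) and the most similar window of Bcl2a1b (chr9:89081094-89081213) are shown to make the overlap visible. Capitals mark an AP-1 site (TGANTCA) followed by the PU.1 core (GAGGAAG), found in 3.03% and 5.22% of upstream windows.
Bcl2a1d upstream: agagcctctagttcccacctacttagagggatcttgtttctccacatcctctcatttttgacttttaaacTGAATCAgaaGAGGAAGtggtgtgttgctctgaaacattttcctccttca
Bcl2a1b upstream: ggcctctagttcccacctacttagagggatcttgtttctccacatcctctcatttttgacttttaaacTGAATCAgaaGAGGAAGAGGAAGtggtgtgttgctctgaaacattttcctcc
These windows are 12 single-base changes, insertions or deletions apart. That count includes bases at the window ends, which are out of register, and the bases inserted with the second PU.1 core. The PU.1 core occurs once in Bcl2a1d and in 2 overlapping copies in Bcl2a1b. The Bcl2a1b window is identical to that of Bcl2a1a over all 120 bases. The 50 bases at the summit of the Bcl2a1b promoter occur at 2 places in the genome and those of Bcl2a1d at 3, so the split of reads among the copies is uncertain. Their summed pileup was 349, 339 and 415 in control and 386, 311 and 354 in HADA, which is 207, 165 and 227 against 165, 156 and 156 relative to background.

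Each of the A1 pair also had an intronic region with a peak in all 3 HADA libraries and no control library. In Bcl2a1b, 3.2 kb from the 5′ end (chr9:89084243-89084708), pileup was 93, 80 and 76 in HADA 1 to 3. In Bcl2a1d, 3.3 kb in (chr9:88610448-88610849), it was 47, 62 and 52. These are the tallest of the regions limited to HADA at the 10 genes, and they stand within 4 kb of promoters that were not called. Their matching windows (chr9:89084437-89084556, plus strand, and chr9:88610600-88610719, minus strand) differ by 1 base, so they cannot be read as independent. Capitals mark 2 IRF matches (GAAANNGAA), on opposite strands, a motif found in 3.79% of summit windows.
Bcl2a1b intron at 3.2 kb: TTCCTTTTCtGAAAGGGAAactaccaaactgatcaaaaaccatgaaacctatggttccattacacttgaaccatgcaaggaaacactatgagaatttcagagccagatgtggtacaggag
Bcl2a1d intron at 3.3 kb: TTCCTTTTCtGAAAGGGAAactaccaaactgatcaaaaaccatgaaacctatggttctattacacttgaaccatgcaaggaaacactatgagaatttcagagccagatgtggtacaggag

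Bcl2l1, which encodes BCL-XL, the survival protein of platelets and erythroid cells among others, had the tallest promoter of the 10 genes (chr2:152672405-152673727). Pileup was 404, 370 and 447 in control and 691, 441 and 475 in HADA, or 221 ± 35.7 and 242 ± 46.7 relative to background (SD, n = 3). The groups overlapped, and the centred difference was -0.25 (95% interval -0.70 to 0.21, limma adjusted p = 0.338). Of its 9 regions, 2 were limited to HADA, at 27.0 kb with 21, 12 and 13 and at 15.2 kb with 22, 17 and 15. Both are low peaks beside the promoter. The other shared region, an intron at 42.1 kb, had 33, 33 and 39 against 67, 50 and 47, a centred difference of 0.00 (95% interval -0.44 to 0.44). At 21.5 kb the pileup was 8 in control 1 alone and 28, 22 and 17 in HADA. The regions at 5.7, 34.2, 37.1 and 47.0 kb had peaks in 1 to 3 libraries with pileups of 14 to 47.

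Bcl2 was set against Mcl1 and the A1 genes as a ratio of promoter pileups within each library. Each pileup had 1 added as for the test, and no scaling between libraries was applied. The A1 proteins also serve activated lymphocytes, and use of Mcl1 by lymphocytes was not examined. The ratio is therefore no measure of lymphocytes against granulocytes. Bcl2 stood at 45.5%, 37.8% and 13.4% of Mcl1 in control and at 75.8%, 80.6% and 92.2% in HADA. The log2 ratio was -1.81 ± 0.95 in control and -0.28 ± 0.14 in HADA (SD, n = 3), a difference of 1.54 or 2.90-fold, with every HADA library above every control library. The two-sided exact permutation p was 0.100, the smallest that 3 libraries against 3 allow. Without control 3, which had the lowest ratio, the difference was 0.99.

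Against the other pro-survival promoters the same order held in pileup. The difference in log2 ratio was 1.32 for Bcl2 over Bcl2a1b, 1.11 over Bcl2a1d, 1.50 over the summed A1 copies and 1.06 over Bcl2l1, each without overlap between the groups and each with an exact permutation p of 0.100. These share the same Bcl2 values and are not independent. Bcl2 passed Bcl2a1b, at 135% to 158% of it in HADA and 33.7% to 80.7% in control (pileup + 1). In the deposited fold the Bcl2 over Mcl1 difference was -0.35 (exact permutation p = 0.200), the reverse of the pileup, since the fold differed more between the groups at Mcl1 than at Bcl2, where it was 9.25, 8.86 and 8.13 in control and 11.3, 9.58 and 9.77 in HADA.

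**Figure D3:**
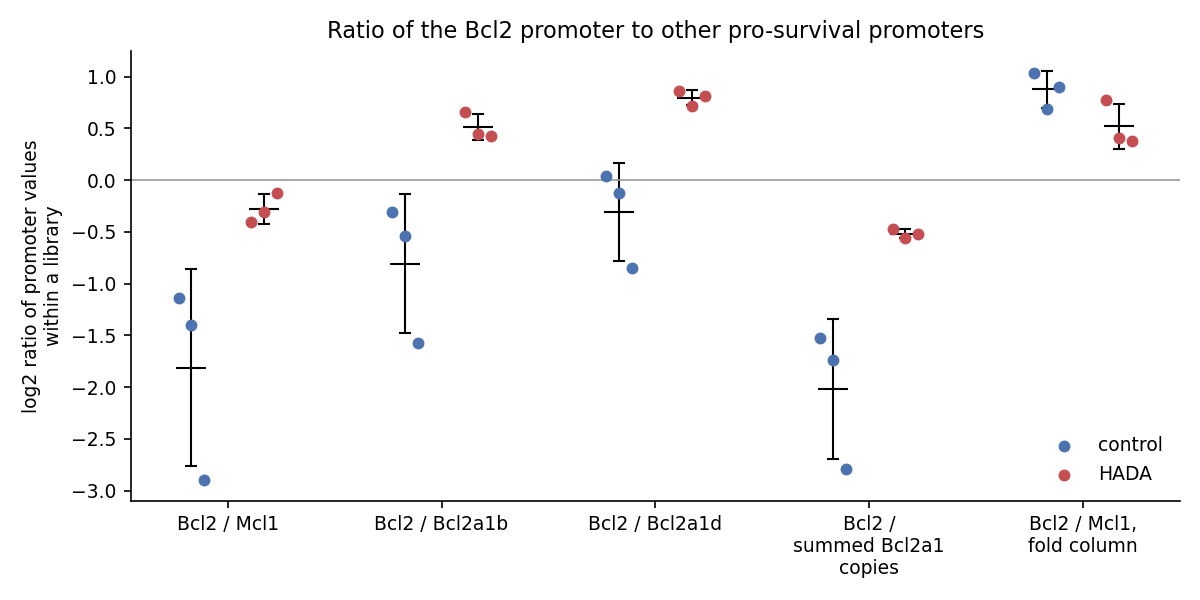
Log2 ratio of the Bcl2 promoter to other pro-survival promoters within each library (y axis), with points for the 3 control and 3 HADA libraries and bars for mean ± SD. In pileup all HADA points lie above all control points, with Bcl2 over Mcl1 at -0.40 to -0.12 against -2.90 to -1.14, while in the deposited fold column the HADA mean lies lower by 0.35.

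Cell markers differed between the groups beside the Bcl2 ratio. B cell marker signal was 257, 159 and 28.4 in control 1 to 3, in the same order as the Bcl2 promoter at 71.1, 49.2 and 32.2, and neutrophil signal was 409, 304 and 755, with the top value in control 3 as for Mcl1. Within HADA, B cell signal was 647, 683 and 600 with Bcl2 at 119, 106 and 108, so the library with the most B cell signal had the lowest Bcl2 value. Neutrophil signal there was 241, 189 and 133, and Mcl1 was 157, 132 and 117. Their part in the ratio was not tested.

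**Figure D4:**
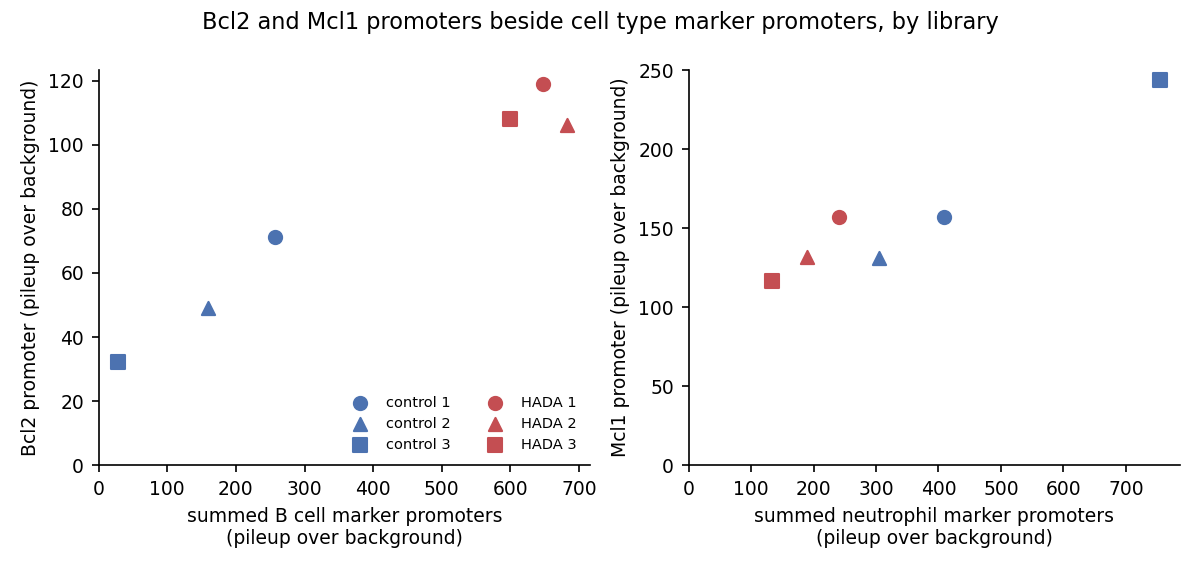
Promoter pileup over library background of Bcl2 against summed B cell marker promoters (left) and of Mcl1 against summed neutrophil marker promoters (right), 1 point per library. Control 3 combines the lowest B cell (28.4) and Bcl2 (32.2) values with the highest neutrophil (755) and Mcl1 (244) values.

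Among the BH3-only genes, Bcl2l11 encodes BIM, the main trigger of lymphocyte and granulocyte death after cytokine withdrawal. Its promoter (chr2:127967366-127968466) had a pileup of 298, 260 and 290 in control and 459, 375 and 377 in HADA, and a second start region, at 1.6 kb, had 156, 122 and 131 against 236, 205 and 226. Their centred differences were -0.11 and 0.09 (limma adjusted p = 0.617 and 0.674), so neither passed the test. An intronic region 27.0 kb in, chr2:127994453-127995850, was called higher: pileup was 42, 28 and 24 in control and 87, 85 and 107 in HADA. The difference was 0.95 (SE 0.21, 95% interval 0.46 to 1.45, limma adjusted p = 0.0133, and 0.0527 without HADA 2), a 1.94-fold higher level. With fold ranks it did not pass, at 0.42 (limma adjusted p = 0.0724). Its summit (chr2:127994926-127995045, plus strand) held none of the 12 motifs.
Bcl2l11 intron at 27.0 kb: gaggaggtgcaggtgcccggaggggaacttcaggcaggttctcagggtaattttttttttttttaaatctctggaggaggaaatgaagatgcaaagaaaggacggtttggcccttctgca

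A different Bcl2l11 intron, 11.0 kb in, ran the other way, with a pileup of 20, 21 and 37 in control, 12 in HADA 3 and no peak in HADA 1 and 2. At 33.4 kb, in an exon, peaks of 17, 15 and 17 appeared in HADA alone. Neither of these regions had a peak in every library, so neither was tested.

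Bbc3, which encodes PUMA, a p53 target that kills lymphocytes and myeloid cells alike, had regions at 2 of its starts that parted. At 1.6 kb (chr7:16042890-16045272) pileup was 155, 114 and 112 in control and 269, 220 and 223 in HADA, with a difference of 0.29 that did not pass the test (limma adjusted p = 0.186), though it did with fold ranks, at 0.84 (limma adjusted p = 0.0256). At the internal start 5.1 kb in (chr7:16046766-16048193) it was 152, 120 and 169 in control and 126, 103 and 110 in HADA. That region was called lower, at -0.98 (SE 0.20, 95% interval -1.44 to -0.52, limma adjusted p = 0.0109), 1.98-fold, at the 5.3 percentile mark of promoters. The call held with any single library left out, with limma adjusted p from 0.00858 to 0.0487, and was lost with background scaling, at -0.62 (limma adjusted p = 0.0748). In the deposited fold the regions parted as well, with 3.67, 3.25 and 3.26 against 5.17, 4.84 and 4.66 at the first and 3.72, 3.43 and 4.86 against 2.53, 2.35 and 2.41 at the second. The exon-free window nearest the summit of the second (chr7:16047322-16047441, plus strand) carried an NF-kB match (GGGANTTCC, in capitals), found in 0.588% of summit windows.
Bbc3 internal start: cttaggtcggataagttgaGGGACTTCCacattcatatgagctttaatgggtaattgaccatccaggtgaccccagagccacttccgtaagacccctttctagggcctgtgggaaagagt

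Pmaip1, which encodes NOXA, the BH3-only partner of MCL-1, had a single promoter region with a pileup of 129, 108 and 153 in control and 195, 149 and 153 in HADA. The groups overlapped, and the difference was -0.27 (95% interval -0.74 to 0.21, limma adjusted p = 0.322).

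No region of the effectors passed the test. The Bax promoter (chr7:45115718-45116591) had 67, 64 and 67 in control and 126, 92 and 104 in HADA, a centred difference of 0.07 (95% interval -0.31 to 0.44, limma adjusted p = 0.763). The Bak1 promoter (chr17:27246326-27247861) had 79, 64 and 89 against 116, 127 and 106, a difference of -0.02 (95% interval -0.52 to 0.47, limma adjusted p = 0.936). These intervals still allow changes of moderate size in either direction. A Bak1 region 3.5 kb in had 47, 44 and 63 against 71, 51 and 52, with a difference of -0.44 (limma adjusted p = 0.138). A region upstream of Bax had 15, 20 and 17 in control, 21 and 23 in HADA 2 and 3 and no peak in HADA 1. It entered the set only because the HADA 3 summit lay 2941 bp from the start, while the other summits there lay at 3005 to 3201 bp, just outside the limit.

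**Figure D5:**
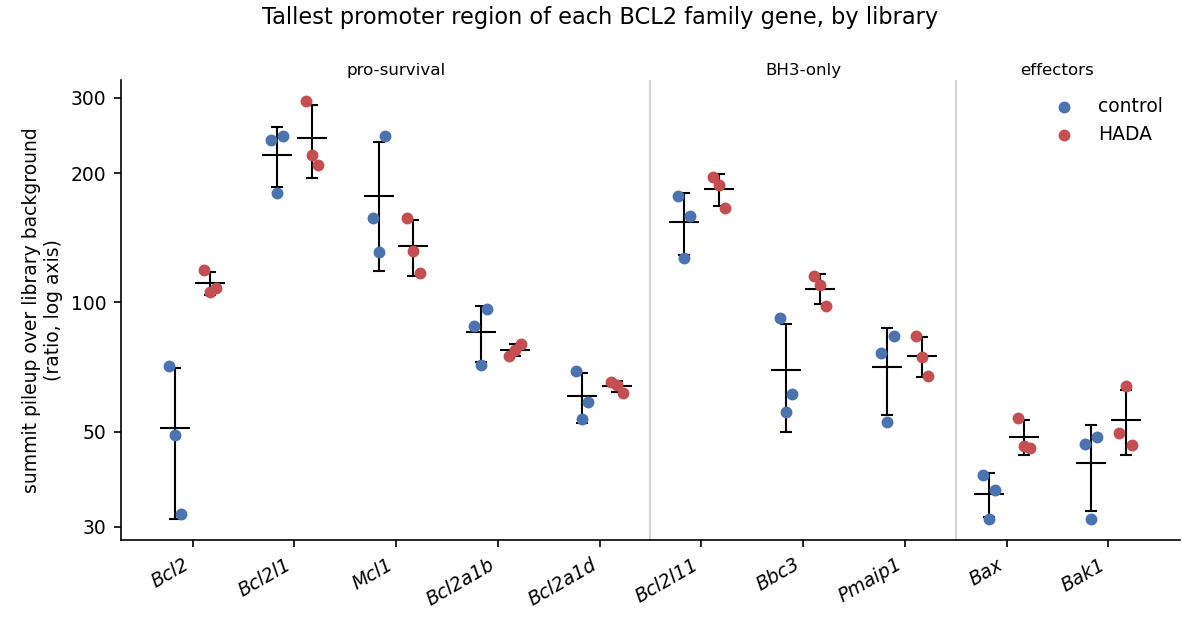
Summit pileup over library background (log axis) at the promoter region of each of the 10 genes that was tallest over all 6 libraries, with a point for each library and bars for mean ± SD of the 3 libraries of a group. Bcl2 is the pro-survival promoter whose groups lie apart on this scale (32.2 to 71.1 in control, 106 to 119 in HADA), whereas Bcl2l1, Mcl1, Bcl2a1b and Bcl2a1d overlap.

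By level over background, taking for each gene the promoter region that was tallest over all 6 libraries, the order in control was Bcl2l1 (221), Mcl1 (177), Bcl2l11 (154), Bcl2a1b (85.5), Pmaip1 (70.9), Bbc3 (69.5), Bcl2a1d (60.4), Bcl2 (50.8), Bak1 (42.2) and Bax (35.8). In HADA it was Bcl2l1 (242), Bcl2l11 (183), Mcl1 (135), Bcl2 (111), Bbc3 (108), Bcl2a1b (77.5), Pmaip1 (75.1), Bcl2a1d (63.7), Bak1 (53.3) and Bax (48.6). The internal Bbc3 start, at 80.3 in control and 51.3 in HADA, would place Bbc3 above Pmaip1 in control. Bcl2 stood between Bcl2a1d and Bak1 in control and between Mcl1 and Bbc3 in HADA. In control the spread of Bcl2 (SD 19.5) covered its neighbours Bcl2a1d and Bak1, and in HADA Bcl2 and Bbc3 (SD 6.86 and 8.75) did not differ beyond their spread. Summit height is a point measure and was not divided by length.

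The number of peaks at the 10 genes was 30, 27 and 24 in control and 43, 39 and 40 in HADA. The mean was 27.0 ± 3.00 against 40.7 ± 2.08 (SD, n = 3), 50.6% more, and the exact permutation p was 0.100, the lowest that this design allows. HADA libraries held 15.0% more peaks in all, and per 10000 peaks the members had 7.23, 6.55 and 7.05 against 9.68, 8.85 and 8.73. Bcl2 supplied 13, 12 and 8 of the peaks in control and 20, 17 and 17 in HADA. Counting only summits within 3 kb of a start, the difference was 1.00 peak (exact permutation p = 0.700), so most of the extra peaks lay further inside the genes.

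By presence, 8 of the 49 regions (16.3%) had a peak in all 3 HADA and no control library, against 7.01% of all regions, and 0 had the reverse, against 1.88% of all. When every library gave equally many of its strongest peaks, these counts were 4 and 1. Of the 8, 3 were in Bcl2, 2 in Bcl2l1 and 1 each in Bcl2a1b, Bcl2a1d and Bcl2l11. In all, 22 regions (44.9%) were found in more HADA than control libraries and 5 (10.2%) in more control libraries, beside 35.5% and 22.7% of all regions. A peak that is absent from a list may have fallen just short of the caller's threshold.

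The rest of the pathway was read from the tallest promoter region of each gene on 4 lists, whose counts stand beside 19.8% higher and 8.66% lower for all shared promoter regions. Among 13 tested genes of the wider BCL2 family, 1 rose and 2 fell. Bnip1, an endoplasmic reticulum SNARE with a BH3-like stretch, differed by 2.08 (limma adjusted p = 0.0181), with 36.7, 23.4 and 5.47 over background in control and 97.0, 95.4 and 93.2 in HADA. Bid, which links death receptors to mitochondria, fell by 0.88 on the log2 scale (limma adjusted p = 0.0426), and Bcl2a1a has been described. Bcl2l10 and Bok had no promoter peak.

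Of 12 genes of the apoptosome and the caspases, 4 rose and 0 fell. Among those that rose, Casp6 differed by 0.80 (limma adjusted p = 0.0359), the mitochondrial nuclease gene Endog by 0.75, and Casp9, the initiator of the apoptosome, by 0.62 (limma adjusted p = 0.0215). Of 7 inhibitors of apoptosis, 0 rose and 2 fell, Naip2 (-0.93) and Naip5 (-0.76), which sense bacterial proteins in myeloid cells, and the Naip2 summit sequence occurs at 2 places in the genome. Of 11 regulators of these genes, Foxo1 (0.96) and Myc (0.83) rose, and Tnfrsf1a (-1.72) and Morrbid (-1.46) fell. Morrbid is a long non-coding RNA next to Bcl2l11 that represses it in short-lived myeloid cells. The median differences of the 4 lists were -0.30, 0.19, -0.10 and -0.21, beside 0.11 for all shared promoters. With background scaling they were 0.07, 0.56, 0.27 and 0.16, so 3 of the 4 signs turned. With fold ranks Endog still passed (0.70, limma adjusted p = 0.0451), and the other 11 genes named from these lists as rising or falling did not, with limma adjusted p from 0.0699 to 0.923.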

How the data were processed

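ATAC-seq peak lists of 3 control and 3 HADA blood libraries were used. According to the methods and the submitters' processing notes, reads were checked with FastQC, trimmed with Trimmomatic, aligned to GRCm39 with Bowtie2, and peaks were called in each library with MACS2, whose version and settings are not given in the sources used here. The deposited lists give for each peak a fold enrichment (a ratio), −log10 p and −log10 q, a score that was not used, and the summit offset. Sequencing depth is not stated. The summit pileup was solved as the whole number that satisfies the deposited fold and −log10 p together (100.0% of peaks solved, tolerance 0.1%). Peaks on 21 main chromosomes that shared at least 1 bp were joined into regions, and a region took its tallest peak in each library. log2(pileup + 1), centred on the library median, was tested with limma 3.58.1 in R 4.3.3 over 23970 regions with a peak in all 6 libraries (adjusted p under 0.05 called), and single values with two-sided exact permutation tests, whose smallest p is 0.1. Fits and solver were tested on simulated data. The labels number the replicates without saying that they are separate mice, so p-values measure the spread between these samples only. Sequences were read from GRCm39, and windows of 120 bases were searched on both strands for 12 motifs: ETS CCGGAAG, PU.1 GAGGAAG, GC box GGGCGG, CRE TGACGTCA, NF-kB GGGANTTCC, RUNX TGTGGTT, C/EBP TTGCNNAA, AP-1 TGANTCA, STAT TTCNNNGAA, FOXO TGTTTAC, EBF CCCNNGGGA and IRF GAAANNGAA. The members, gene lists and marker lists were chosen with earlier results of these data known. All 10 genes were described with each of their regions, and genes of the 4 wider lists were named where their promoter region passed the test. The value of 1 gene on the wider lists is not reported here.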

Additional observations from a re-analysis of the deposited data

How the results depend on the processing

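Over all shared regions, 4318 were called higher and 5853 lower, so 42.5% of calls were higher. Background scaling gave 7432 and 4396 (62.8%), quantile normalization 5439 and 4119 (56.9%), and ranks of the deposited fold 1573 and 1146 (57.9%). With −log10 q of at least 10, 3449 were lower. Leaving out 1 library gave 1046 to 4839 higher and 2541 to 6008 lower, with the fewest of both without HADA 2 (2020 and 3765 without HADA 1, and 1827 and 4065 without HADA 3).

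For the 21 member regions, 4 higher became 2 with fold ranks, at Bbc3 and Mcl1 and at none of the 4, and 1 to 5 without 1 library (2, 1 and 2 without HADA 1, 2 and 3). The 1 lower call became 0 with background scaling, 3 with quantile normalization, with summit sequences found once and with a limma trend, and 2 with −log10 q of at least 5 or 10 or the same number of strongest peaks. Without 1 library it was 1 to 2, with 2 without control 1 and without HADA 3. The 8 regions limited to HADA became 4 when every library gave equally many of its strongest peaks, and 8 to 11 without 1 library, and the 0 limited to control became 1 with that setting and with either q limit, and 0 to 1 without 1 library (1 without HADA 3). The Bcl2 over Mcl1 difference of 1.54 was 0.99 to 1.88 without 1 library and reversed to -0.35 in the deposited fold. The peak count difference of 13.7 was 12.2 to 15.2 without 1 library, 11.7 and 9 with −log10 q of at least 5 and 10, 8 when libraries gave equally many peaks and 1 within 3 kb of a start.

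Of 348 single-region alternatives, 316 kept their side of the threshold, 17 lost a call, 14 gained one and 1 reversed, the Mcl1 promoter with fold ranks (0.74). The Bcl2 region at 1.7 kb lost its call with fold ranks, equally many strongest peaks (0.05), summits joined within 250 bp (0.0502), summit sequences found once (0.0667), the replicate block (0.0614), and without control 3 or any HADA library (limma adjusted p in parentheses). Bcl2a1b (-0.50) gained a call with quantile normalization, either q limit, the same number of strongest peaks, summits joined within 250 bp, and the limma trend. The Bcl2 over Mcl1 setting with the summed A1 copies was chosen after seeing the data. The cause of these changes was not tested.

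With the replicate number as a block, 3056 regions were higher and 5771 lower, 3 member regions were higher and 1 lower, and the Bcl2 over Mcl1 difference was 1.54 (exact permutation p = 0.250, the smallest that 3 pairs allow). Same-numbered libraries deviated from their group means with correlations of -0.08, 0.083 and -0.381, and no library correlated best with its own number. With 3 libraries in each group, such correlations cannot exclude that same-numbered samples shared an origin, and the labels do not say whether they did.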
